A study of Mus musculus with 8 samples.

Results

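The tumours described here are the 4 IgG control tumours of a study of 8 mouse mammary tumours. They were taken by their treatment label, and only their columns of the deposited count table were used. All 4 grew from EMT6 cells, a transplantable mammary carcinoma line derived from Balb/c mice, in Balb/c hosts whose genotype is given as wild type, and the control animals received IgG. Treatment was given 3 times within 10 days. The other 4 tumours received GrB-Fc-KS49, in which granzyme B is fused to a binder of the surface antigen EMP2, and their values are not described. The treated libraries enter only through the table itself, in which the lowest total of a listed gene over all 8 libraries was 10. The sources do not give the hosts' age or sex, nor whether the tumours came from separate animals. Replicate 1 alone of the 4 carries a final U in its title, which is not explained.

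A transplanted tumour is a mixture. RNA from the carcinoma cells is sequenced together with RNA from host fibroblasts, which lay down collagen, from blood vessels, from macrophages and lymphocytes, and from fat, muscle or blood that was excised with the mass. Carcinoma cells of epithelial origin can lose E-cadherin and other junction proteins and take on vimentin and fibronectin, a change known as epithelial-mesenchymal transition. Interferon-gamma, made by T cells and natural killer cells, switches on antigen presentation genes and chemokines in many cell types, so these genes often move together between tumours.

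Total estimated counts ran from 73.98 to 82.62 M (1e6) per tumour, so that 1 count was worth 0.0121 to 0.0135 CPM. Levels of the same gene in different tumours are given as CPM (counts per 1e6 counts, scaled by TMM). Levels of different genes are given as TPM (CPM divided by transcript length and rescaled to 1e6). Protein-coding genes took 88.1% to 89.0% of the counts, genes encoded in the mitochondrial genome 2.01% to 2.26%, and the 18S ribosomal RNA gene Rn18s-rs5 2.12% to 3.19%. Log2 CPM over all genes at a mean of at least 1 CPM correlated between tumours with Pearson r from 0.978 (replicates 1 and 3) to 0.993 (replicates 2 and 4), a description of libraries over shared genes. Replicates 1 and 3 also lay at the 2 ends of the first principal component, which held 63.5% of the variance. Replicate 4 deviated from the mean of the tumours along GC content (Spearman rho across 12376 genes 0.22) and transcript length (-0.13), and the part of either in the values below was not tested.

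Of 26709 genes in the table, 13903 (52.1%) were at 1 CPM or more in every control tumour, and 5334 (20%) were below 0.1 CPM in every one. Among 16694 protein-coding genes these shares were 72% and 9.74%. The median protein-coding gene was at 10.3 TPM, the 1000th at 128 TPM and the 100th at 805 TPM. The highest level was that of Eef1a1, the elongation factor that brings aminoacyl-tRNA to the ribosome, at 9512 ± 386 TPM (SD, n = 4). The next were mt-Co1, a cytochrome oxidase subunit, at 8822 TPM, Actb, cytoplasmic beta-actin, at 6955 TPM, and Lgals1, the secreted lectin galectin-1, at 6146 TPM. B2m, the light chain of MHC class I, followed mt-Co2 at 4684 TPM, and the intermediate filament gene Vim was 7th of all protein-coding genes at 4660 ± 144 TPM. The secreted phosphoprotein osteopontin, Spp1, was 14th at 3517 ± 531 TPM. The other genes among the first 25 were further mitochondrial genes, the ferritin chains Fth1 and Ftl1, Actg1, Tmsb10, S100a4, Hsp90ab1, Eef2, Rpl8 and 3 copies of housekeeping genes. The 100 genes of highest TPM held 11 mitochondrially encoded and 21 ribosomal protein symbols. They also held 9 symbols that contain -ps, end in rt or begin with Gm and a digit, forms used for pseudogenes, copies and predicted genes.

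The copies limit what can be said of their parents. Rpl10 was at 20.4, 22.9, 28.3 and 31.5 CPM in replicates 1 to 4 while the pseudogene Rpl10-ps3 was at 1238, 1353, 1728 and 1533 CPM. Rps27 was at 2.90 to 3.77 CPM and its retrotransposed copy Rps27rt at 477 to 537 CPM. The glycolytic enzyme gene Eno1 was at 193 to 209 CPM beside 1348 to 1429 CPM for its intronless copy Eno1b. How reads were divided among such copies is not known, so these levels, and those of Rpl5, Rps2 and Rps18 (8.54, 17.1 and 42.5 TPM), are uncertain.

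**Figure D1:**
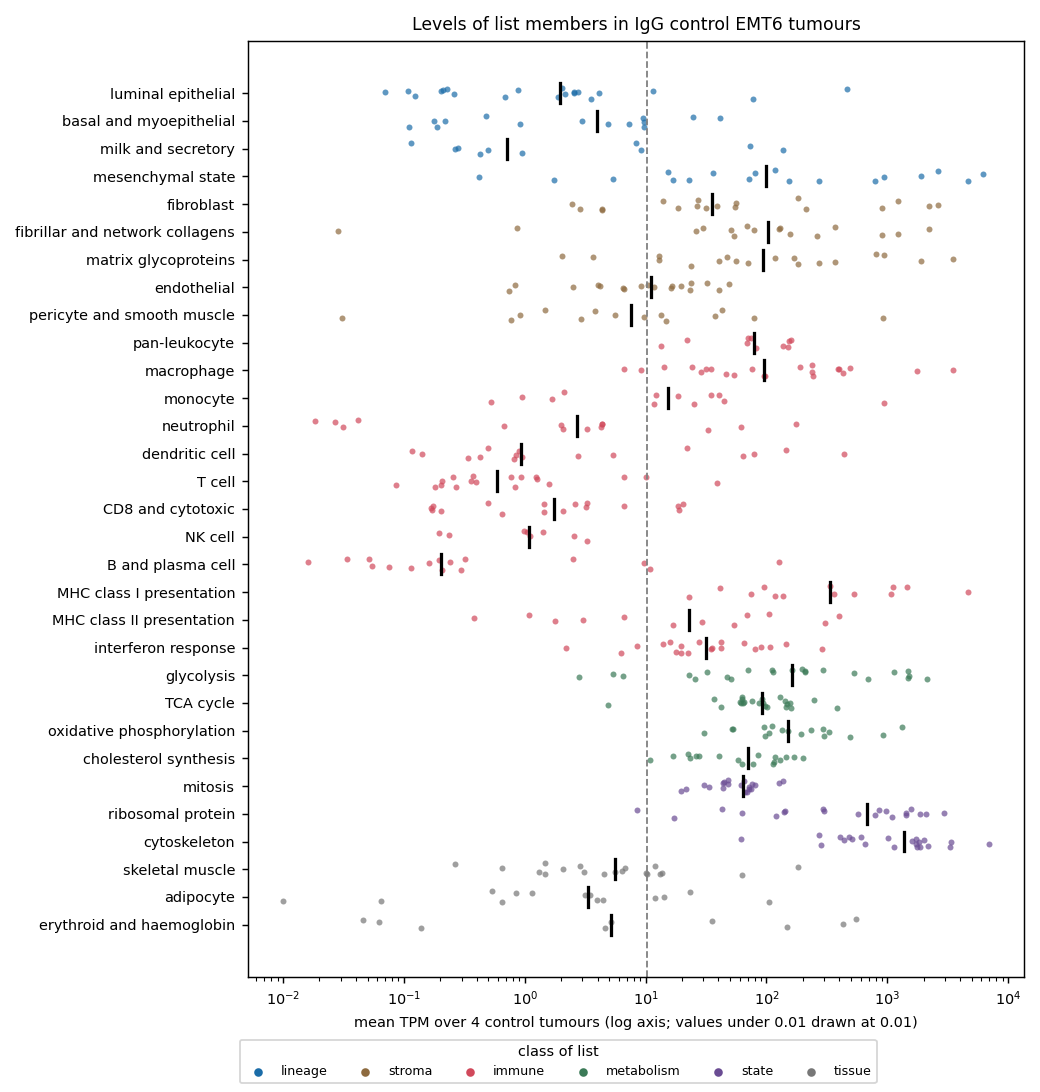
Mean TPM over the 4 control tumours (log axis) of each member of 31 gene lists, 1 point per gene, coloured by class of list, with the black bar at the list's median and the dashed line at the median protein-coding gene (10.3 TPM). Cytoskeletal, ribosomal protein and MHC class I genes lie far to the right of the line, while luminal, milk, T cell and B cell lists have medians to the left of it.

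The 58 gene lists spanned the whole range of expression, and 40 of them had a median at or above the middle of the protein-coding genes. The plot of member levels by list shows the ends of this range. Cytoskeletal genes had a median of 1371 TPM, at the 99.7th percentile of protein-coding genes, ribosomal protein genes one of 685 TPM and MHC class I presentation genes one of 338 TPM. Genes of skin (median 0.0662 TPM), of B and plasma cells (0.202 TPM) and of nerve (0.465 TPM) were at the other end.

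Spread between tumours was small for most genes. Over the 14454 genes at a mean of at least 1 CPM, the median coefficient of variation was 7.12%, and edgeR's common biological coefficient of variation was 15.3%. In 932 genes (6.45%) the highest tumour was at 2 times the lowest or more. Of these, 472 (50.6%) were highest in replicate 1 and 499 (53.5%) were lowest in replicate 3, with 392 genes meeting both conditions and 175 the reverse. Among all 14454 genes, replicate 1 was highest in 25.9% and replicate 3 lowest in 27%. Without replicate 1 the number over 2-fold was 371 and without replicate 3 it was 581, so a large part of the spread was carried by these 2 tumours.

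**Figure D2:**
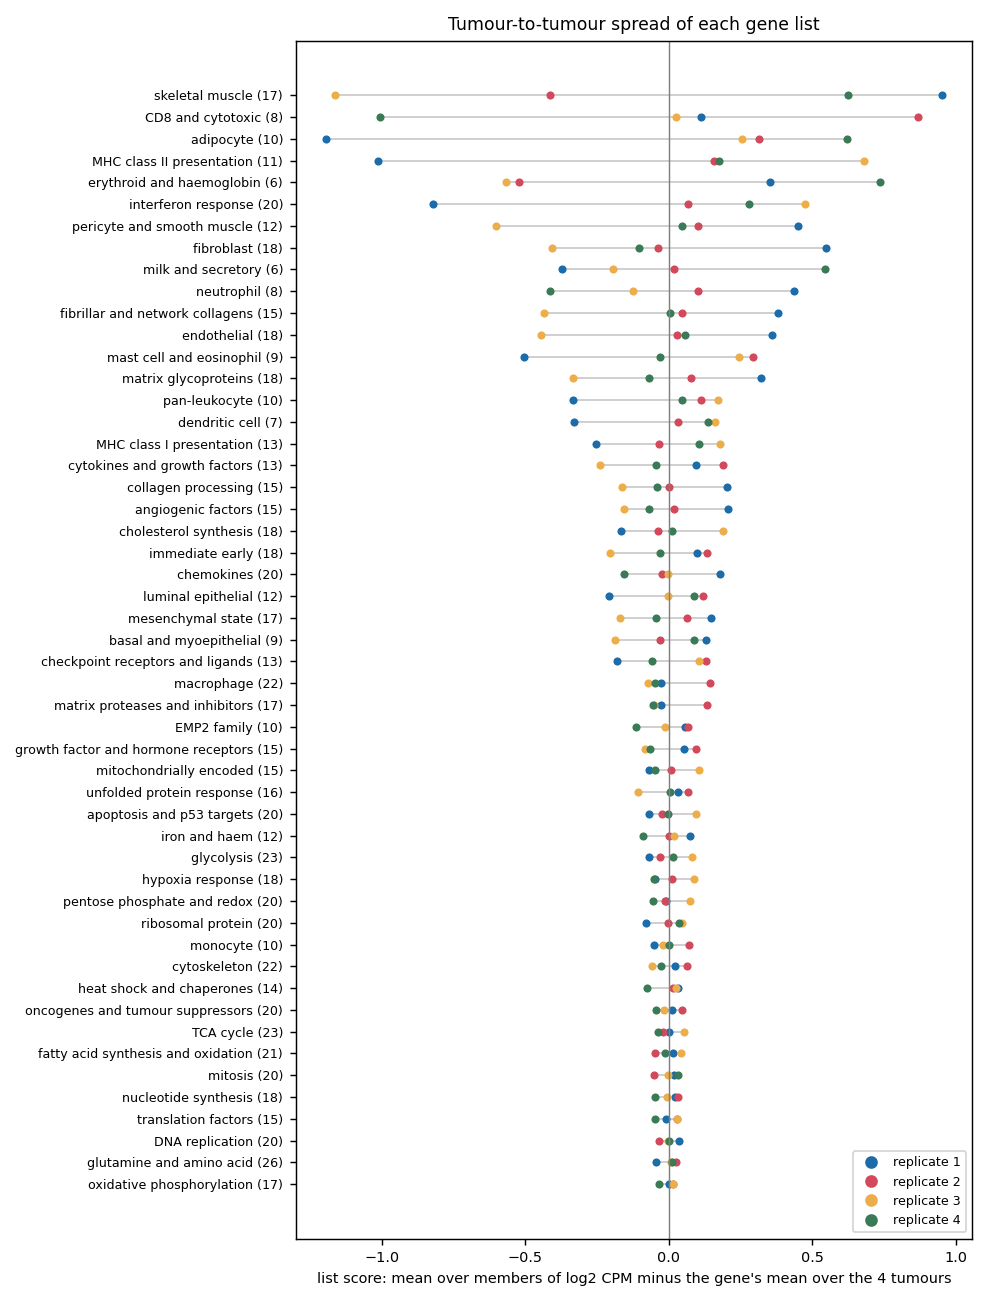
Score of each gene list in each control tumour, the mean over its members at 1 CPM or more of log2 CPM minus the gene's mean over the 4 tumours, with the number of members in brackets and lists ordered by range. Skeletal muscle, cytotoxic, adipocyte, MHC class II and interferon lists are spread over more than 1 log2 unit, and oxidative phosphorylation, DNA replication and mitosis genes lie within 0.1 of each other.

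A score for each list (the mean over its members of log2 CPM minus the gene's mean over the tumours) shows which groups carried the spread. The scores of 17 oxidative phosphorylation genes stayed between -0.03 and 0.02, whereas those of 17 skeletal muscle genes ran from -1.16 in replicate 3 to 0.95 in replicate 1. The lists separated the tumours along different orders, described group by group below. In bulk tissue, more cells of a type and more RNA per cell cannot be told apart.

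The labels name the cells as epithelial, and the keratin genes were split on this point. Krt8 (chr15:101905133-101912917 on GRCm39), the type II keratin of simple epithelia, was at 455, 433, 459 and 413 CPM in replicates 1 to 4. The 4 tumours lay close together, and at 467 ± 21.5 TPM Krt8 was at the 98.8th percentile of protein-coding genes. Its partner Krt18 was at 54.3, 56.2, 67.2 and 37.2 CPM, lowest in replicate 4, with a mean of 77.5 TPM. Epcam, an epithelial adhesion molecule, was at 4.46, 4.33, 3.13 and 4.38 CPM. Cdh1, which encodes E-cadherin, was at 4.05 CPM in replicate 1 and at 8.34 to 8.96 CPM in the other tumours, 3.52 TPM on average. Both genes were thus far below the keratin pair in every tumour. The epithelial splicing factor Esrp1, the transcription factors Grhl2, Ovol1 and Foxa1, the tight junction gene Cldn7 and the vesicle gene Rab25 were each below 0.5 CPM in all 4 tumours. Of 20 luminal genes, 11 were at 1 CPM or more in every tumour, against 72% of protein-coding genes, and the list's median was 1.95 TPM. Of the 12 at a mean of 1 CPM or more, 5 were over 2-fold, against 6.45% of all genes.

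Basal markers were divided in the same way. Trp63, the transcription factor that defines basal epithelium, was at 17.3, 17.9, 20.4 and 19.7 CPM, while the basal keratin Krt5 was at 0.495, 0.743, 0.568 and 2.03 CPM. The laminin-binding integrins Itga6 (66.9 to 109 CPM) and Itgb4 (65.4 to 84.4 CPM) and the receptor Egfr (36.2 to 60.1 CPM) were well expressed. Krt14 was at 13.8 CPM in replicate 4 and at 5.44 to 5.84 CPM in the other 3. Milk genes were low, with the casein Csn3 at 0.169 to 0.730 CPM and Lalba, alpha-lactalbumin, at 0.0947 to 0.247 CPM. At a mean of 1 CPM or more, 3 of 6 milk genes and 1 of 9 basal genes were over 2-fold. The share over all genes was 6.45%, so the basal count says little for 9 genes. Mfge8, a milk fat globule protein that macrophages also make, and Xdh, xanthine dehydrogenase, were the milk list's most abundant genes at 137 and 73.1 TPM. Apart from Krt8 and Krt18, the highest level of the luminal list was that of Krt19, another simple-epithelial keratin, at 11.5 TPM.

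Genes of the mesenchymal state were abundant, with a median of 99.4 TPM. Of 18 genes 17 were at 1 CPM or more in every tumour, against 72% of protein-coding genes. Vim was at 5037, 5076, 4929 and 4647 CPM, and the matrix protein gene Fn1 at 3957, 3702, 3636 and 3821 CPM. Their coefficients of variation were 3.94% and 3.74%, so the tumours hardly differed in either gene. The list varied more, with a median coefficient of variation of 10.3% over its 17 genes at a mean of at least 1 CPM. Of these, 10 were highest in replicate 1 and 8 lowest in replicate 3, against 25.9% and 27% of all genes. Of the 17, 2 were over 2-fold, against 6.45% of all genes. Sparc, a collagen-binding glycoprotein, was at 1913 TPM, S100a4, a calcium-binding protein of motile cells, at 2626 TPM and Lgals1 at 6146 TPM. Of the transcription factors of this state, Twist1 was at 80.0, Snai1 at 71.2, Prrx1 at 36.2, Zeb2 at 23.1, Snai2 at 16.9 and Zeb1 at 15.3 TPM, while Twist2 was at 1.76 TPM. Cdh2, which encodes N-cadherin, was at 1.64, 0.977, 0.758 and 0.519 CPM, so neither Cdh1 nor Cdh2 was abundant. Cdh11, another cadherin gene of the list, was at 1 CPM or more in every tumour. Fibroblasts express most genes of this list as well, and their share in these values was not tested.

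**Figure D3:**
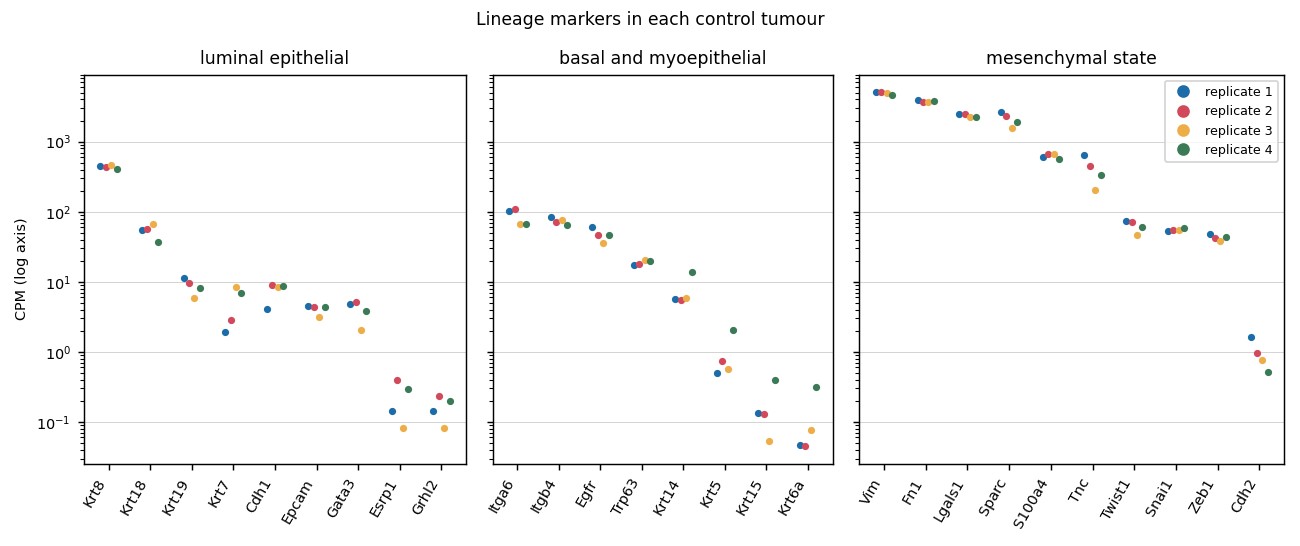
CPM (log axis) of luminal, basal and mesenchymal markers in each of the 4 control tumours, 1 point per tumour. Krt8 lies at 413 to 459 CPM beside Epcam and Cdh1 at 3.13 to 8.96 CPM, Trp63 at 17.3 to 20.4 CPM beside Krt5 at 0.495 to 2.03 CPM, and Vim and Fn1 at 3636 to 5076 CPM.

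Receptors of growth factors were led by the receptor tyrosine kinase gene Axl at 263, Fgfr1 at 132 and Tgfbr2 at 107 TPM. The platelet-derived growth factor receptor gene Pdgfrb at 78.8 and the hepatocyte growth factor receptor gene Met at 67.8 TPM followed. The share of carcinoma and host cells in the receptor values was not tested. Erbb2, the HER2 gene, was steady at 38.0, 35.8, 37.6 and 37.8 CPM. Of the hormone receptors, Esr1, estrogen receptor alpha, was at 32.2, 33.7, 29.1 and 30.2 CPM, whereas Pgr, the progesterone receptor gene it commonly activates in mammary epithelium, was at 0.0271 to 0.208 CPM. Of 15 receptors at a mean of 1 CPM or more, none was over 2-fold, where 6.45% of all genes were.

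Emp2, whose protein the study's agent is directed to, was at 120.7, 148.4, 137.9 and 126.2 CPM in these control tumours, a mean of 80.4 TPM. Its relative Emp1 was at 1053, 1262, 1082 and 980 CPM and Emp3 at 106 to 124 CPM. Emp2 protein is known to act through integrins, focal adhesion kinase, Src and caveolin. Cav1, caveolin-1, was at 505 TPM, the kinase genes Ptk2 at 65.6 and Src at 51.9 TPM, and the integrin genes Itgav at 37.9 and Itgb3 at 10.5 TPM. All 10 genes of this group were expressed in every tumour, as were 72% of protein-coding genes. No member was over 2-fold, where 6.45% of all genes were, so this count says little for 10 genes.

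Oncogenes and tumour suppressors were also steady, with a median coefficient of variation of 5.27% over 20 genes. Ccnd1, cyclin D1, was at 532, 677, 669 and 566 CPM, Nras at 390 to 424 CPM, Myc at 146 to 170 CPM and Trp53 at 130 to 141 CPM. Cdkn2a, which encodes the p16 and p19 tumour suppressors, was the exception at 13.4, 22.2, 7.62 and 12.2 CPM, highest in replicate 2 and lowest in replicate 3. Its neighbour Cdkn2b was at 0.716 to 1.21 CPM.

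Collagen genes (median 103 TPM) and matrix glycoprotein genes (median 94.2 TPM) were abundant. Most stromal and matrix genes were highest in replicate 1 and lowest in replicate 3, with replicates 2 and 4 between them. Of 15 collagen genes at a mean of 1 CPM or more, 12 were highest in replicate 1 and 14 lowest in replicate 3, where the shares over all genes were 25.9% and 27%. Col1a1 (chr11:94827050-94843868), a chain of type I collagen, was at 4456, 3573, 2484 and 3591 CPM, and Col3a1, type III collagen, at 3478, 2438, 1488 and 2185 CPM. Col1a2, the other type I chain, had the highest level of the list at 2193 TPM. Enzymes that modify and cross-link collagen followed, with 13 of 15 highest in replicate 1, among them the collagen chaperone Serpinh1 at 1015, 896, 738 and 878 CPM and the lysyl oxidase Loxl2 at 195, 126, 128 and 130 CPM. No member of that list was over 2-fold, where 6.45% of all genes were.

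Matrix glycoproteins had 14 of 18 members highest in replicate 1 and 13 lowest in replicate 3, against 25.9% and 27% of all genes. Tnc, tenascin-C, was at 639, 446, 202 and 334 CPM and Bgn, the proteoglycan biglycan, at 1154, 1306, 533 and 733 CPM. Elastin, Eln, was at 9.67, 6.74, 2.94 and 7.61 CPM. The basement membrane gene Lama5, laminin alpha-5, had another order, with 22.1 CPM in replicate 3 and 6.11 to 8.62 CPM in the other 3. Fibroblast markers had 14 of 18 members highest in replicate 1 and 14 lowest in replicate 3, with the small proteoglycans Dcn at 72.1, 49.1, 30.2 and 33.3 CPM and Lum at 35.7, 22.5, 12.1 and 16.6 CPM. Dpt, dermatopontin of the dermis, was at 24.4 CPM in replicate 1 and at 6.20 to 8.95 CPM in the others. Pdgfra, a widely used fibroblast marker, did not follow, at 84.4 to 89.4 CPM.

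Vessel markers had the same order as the matrix but lower levels. Among protein-coding genes, the endothelial list had its median at percentile 51.3 and the pericyte and smooth muscle list at percentile 44.9. Of 18 endothelial genes, 16 were highest in replicate 1 and 17 lowest in replicate 3, against 25.9% and 27% of all genes. Pecam1 (CD31) was at 93.7, 63.5, 46.5 and 64.8 CPM and Cdh5, VE-cadherin, at 84.1, 63.8, 40.3 and 59.2 CPM. The VEGF receptor gene Kdr was at 34.4, 24.6, 18.9 and 26.1 CPM. Vwf, von Willebrand factor, was low at 2.79 to 3.45 CPM and did not share the order. All 12 pericyte and smooth muscle genes were lowest in replicate 3, including the pericyte gene Rgs5 at 50.05, 26.1, 17.9 and 22.1 CPM and the intermediate filament gene Des at 38.6, 14.2, 3.90 and 20.3 CPM, which skeletal muscle also expresses. The growth factor Vegfa was abundant at 305 to 363 CPM and was highest in replicate 4.

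The number of these genes over 2-fold rested on the 2 outer tumours. Among fibroblast genes 10 of 18 were over 2-fold with all tumours, 1 without replicate 1 and 5 without replicate 3. For endothelial genes the counts were 5 of 18, 1 and 0, for matrix glycoproteins 8 of 18, 4 and 1, and for collagens 4 of 15, 1 and 2. For all genes the shares were 6.45%, 2.7% without replicate 1 and 3.96% without replicate 3.

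Enzymes that digest matrix did not share this order. Mmp14, a membrane-bound collagenase, was at 434, 456, 378 and 446 CPM and was the most abundant metalloprotease gene at 275 TPM. Mmp9, a gelatinase of myeloid cells, was at 213, 363, 355 and 137 CPM. Mmp3, stromelysin, was at 7.04 CPM in replicate 1 and at 13.03 to 25.6 CPM in the others.

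Macrophage genes had the highest median of the lists of immune cells, at 96.2 TPM, the 91.4th percentile. Pan-leukocyte genes followed at 78.2 TPM. All 22 macrophage genes were at 1 CPM or more in every tumour, against 72% of protein-coding genes. After Spp1, which carcinoma cells can also make, came the lysozyme Lyz2 at 1758 ± 227 TPM, the protease Ctsb at 487 TPM, Apoe at 434 TPM, the protease Ctss at 400 TPM and the complement gene C1qa at 392 TPM. Csf1r, the receptor on which macrophages depend, was at 137, 200, 176 and 175 CPM, and its ligand Csf1 at 361, 383, 455 and 416 CPM. Adgre1 (F4/80) was at 33.9 to 41.6 CPM. Arg1, arginase-1, was at 220, 151, 185 and 120 CPM and Nos2, inducible nitric oxide synthase, at 14.8 to 21.6 CPM, so both arginine-consuming enzymes were detected in each tumour.

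Of the 22 macrophage genes, 6 were highest and 10 lowest in replicate 1, against 25.9% and 26.3% of all genes. The first count is near its share. Some macrophage and platelet genes, grouped here after their values were seen, were high in that tumour. Cd163, the haemoglobin scavenger receptor of tissue-resident macrophages, was at 75.4, 24.5, 6.16 and 15.4 CPM, and Mrc1, the mannose receptor CD206, at 217, 144, 71.5 and 120 CPM. Lyve1 (chr7:110449814-110462446), a hyaluronan receptor of lymphatic vessels and of some resident macrophages, was at 79.3, 14.3, 8.55 and 12.5 CPM. The defining lymphatic genes Prox1 (0 to 0.124 CPM) and Ccl21a (0 to 0.0604 CPM) were near 0 in all tumours. F13a1, coagulation factor XIII of macrophages and platelets, was at 197, 64.6, 33.8 and 58.6 CPM and Pf4, platelet factor 4, at 36.5, 11.2, 5.61 and 10.2 CPM. Ppbp, another chemokine of platelets and macrophages, was at 8.81 CPM in replicate 1. The serpin Serpinb2 was at 59.5 CPM there and at 1.27 to 2.85 CPM in the other tumours, a high-to-low ratio of 46.8, the highest coefficient of variation of the genes at 5 CPM or more (178%). The pan-leukocyte genes did not follow: 9 of 10 were lowest in replicate 1, with Ptprc (CD45) at 38.7, 54.8, 64.1 and 58.2 CPM.

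Over all protein-coding genes, 72% were expressed in every tumour, the share to set beside the counts of this paragraph. Of 12 monocyte genes 10 were expressed in every tumour, which is near that share. Their median was 15.3 TPM, and Fn1 and Vcan of that list are also matrix genes. Ccr2, the receptor that recruits monocytes, was at 75.6, 92.1, 96.6 and 120.9 CPM, lowest in replicate 1 and highest in replicate 4. Of 16 dendritic cell genes 7 were expressed in every tumour, with a median of 0.925 TPM, and the most abundant was Fscn1, an actin-bundling gene that other cells also express, at 439.5 TPM. Most T and B cell markers were low. Of 18 T cell genes, 2 were at 1 CPM or more in every tumour, the kinase Lck and the transcription factor Tcf7. The receptor chain Cd3e was at 0.133, 0.703, 0.677 and 0.8286 CPM while Lck was at 9.48, 10.5, 10.6 and 11.6 CPM and Tcf7 at 58.1, 54.0, 31.5 and 41.7 CPM. The high-to-low ratio was 6.23 for Cd3e and 1.22 for Lck, and Tcf7 was highest in the tumour where Cd3e was lowest. Cd8a was at 0.0967, 1.11, 1.87 and 0.890 CPM, lowest in replicate 1. Of 16 B cell genes 3 were expressed in every tumour, namely Xbp1 and Prdm1, which many secretory cells use, and Ighm. Ms4a1 (CD20), a surface protein of B cells, was near 0 at 0.0130 to 0.0742 CPM. The immunoglobulin mu gene Ighm was at 1.22, 9.99, 10.7 and 9.597 CPM, lowest in replicate 1. Of 14 neutrophil genes, 7 were expressed in every tumour, led by Mmp9, with a median of 2.68 TPM. Ly6g, Camp, Ngp and Mpo were below 0.1 CPM in all tumours, and S100a9 was at 27.0, 13.8, 12.5 and 8.79 CPM.

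Granzymes had an order of their own. Gzmd (chr14:56367013-56370065), Gzmf and Gzmg lie in one cluster of serine protease genes on chromosome 14. Gzmd was at 7.05, 19.4, 6.74 and 1.98 CPM, Gzmf at 5.80, 19.2, 6.36 and 1.96 CPM and Gzmg at 4.37, 20.97, 6.14 and 1.29 CPM. All 3 were highest in replicate 2 and lowest in replicate 4, as were Gzme (0.524 to 6.17 CPM) and the pore-forming protein gene Prf1 at 2.44, 5.75, 2.94 and 1.32 CPM. Gzmc was highest in replicate 1, at 14.1, 9.50, 6.23 and 5.56 CPM. Gzmb, the mouse counterpart of the enzyme in the study's fusion protein, was at 1.63, 3.37, 2.63 and 1.36 CPM in these IgG tumours, and Gzma at 0.230 to 1.04 CPM. Genes of this cluster are close copies, so reads may be divided among them. Of 8 cytotoxic genes at a mean of 1 CPM or more, 6 were over 2-fold, against 6.45% of all genes. Without replicates 1, 2, 3 and 4 in turn the counts were 5, 5, 6 and 6. For all genes the shares were then 2.7%, 5.72%, 3.96% and 5.67%.

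Antigen presentation genes were lowest in replicate 1 and highest in replicate 3. Of 11 MHC class II genes, 10 were lowest in replicate 1 and 10 highest in replicate 3, against 26.3% and 30.3% of all genes. Cd74, the invariant chain, was at 45.6, 206, 368 and 215 CPM, H2-Aa at 17.2, 59.8, 94.9 and 58.7 CPM and the class II transactivator gene Ciita at 1.33, 3.39, 4.78 and 3.02 CPM. Class I genes had a smaller range, with 10 of 13 lowest in replicate 1. No member was over 2-fold, where 6.45% of all genes were. B2m was at 1536, 1889, 2309 and 2029 CPM and the transactivator of class I genes, Nlrc5, at 58.5, 77.7, 102 and 96.1 CPM. The endoplasmic reticulum chaperones Calr and Pdia3 of the same list did not share this order (1073 to 1197 and 691 to 709 CPM).

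Interferon response genes followed the class II order. Of 20 genes, 18 were lowest in replicate 1, 14 highest in replicate 3 and 16 over 2-fold. The shares over all genes were 26.3%, 30.3% and 6.45%. Cxcl9 (chr5:92469206-92475938), a chemokine induced by interferon-gamma that recruits T cells, was at 1.47, 11.1, 24.3 and 10.2 CPM, a high-to-low ratio of 16.5. The GTPase gene Iigp1 was at 6.92, 39.4, 78.6 and 42.8 CPM, also lowest in replicate 1 and highest in replicate 3. The most abundant member was the guanylate-binding protein Gbp2 at 212, 344, 474 and 374 CPM, and the ubiquitin-like modifier Isg15 was at 22.96, 33.7, 37.8 and 37.9 CPM. Ifi27l2a had the opposite order, at 21.3, 14.3, 9.05 and 13.8 CPM. The Ifng gene was at 0.0121, 0.182, 0.217 and 0.0618 CPM. Without replicate 1, 1 of the 20 interferon genes and 1 of the 11 class II genes was over 2-fold, against 2.7% of all genes. Without replicate 3 these counts were 12 and 7, against 3.96%. The counts over 2-fold thus rested mostly on replicate 1. Apart from that tumour, the score of the interferon list still ran from 0.07 in replicate 2 to 0.48 in replicate 3.

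RefSeq promoter windows (300 bases that end just past the start, GRCm38.p6) were found for 16 of the 20 interferon genes. The core of the interferon-stimulated response element, GAAANNGAAA on either strand, was in 10 of the 16 (62.5%) and in 3.99% of 27025 genes in the promoter table. Gbp2 and Isg15 are shown as abundant members that hold the element. Capitals mark every match, and a match is a description of the letters.
Isg15 promoter, chr4:156200769-156201068, minus strand: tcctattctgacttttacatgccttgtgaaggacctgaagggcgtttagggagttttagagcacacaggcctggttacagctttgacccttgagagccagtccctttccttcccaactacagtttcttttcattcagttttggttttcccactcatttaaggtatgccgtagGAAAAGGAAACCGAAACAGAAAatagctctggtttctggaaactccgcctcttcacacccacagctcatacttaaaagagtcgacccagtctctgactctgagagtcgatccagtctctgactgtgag
Gbp2 promoter, chr3:142620413-142620712, plus strand: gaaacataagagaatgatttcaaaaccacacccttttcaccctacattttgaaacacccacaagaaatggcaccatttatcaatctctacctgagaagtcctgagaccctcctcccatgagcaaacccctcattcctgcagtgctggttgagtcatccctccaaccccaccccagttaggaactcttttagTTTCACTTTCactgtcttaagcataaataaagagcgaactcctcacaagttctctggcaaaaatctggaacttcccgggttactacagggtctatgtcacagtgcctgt
The Isg15 window holds 3 overlapping matches and the Gbp2 window 1, on the opposite strand. The letters were not in the windows of Cxcl9, Ifit2, Irf1, Irf7, Irf9 and Oasl2.

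Chemokines did not move as a group. Ccl6, a macrophage chemokine, was the most abundant at 254 TPM and was at 343, 136, 119 and 104 CPM, high in replicate 1, as was the monocyte attractant Ccl2 at 45.2, 19.6, 25.7 and 22.3 CPM. Cxcl9 and Cxcl10 had the interferon order. Cxcl16 was lowest in replicate 1 at 45.8 CPM against 74.5 to 81.2 CPM. Of the checkpoint ligands, Cd274 (PD-L1) was at 8.19, 15.2, 21.8 and 14.7 CPM, in the interferon order, and the galectin Lgals9 was the most abundant at 108 TPM. Cd47, which signals to macrophages not to engulf a cell, was even at 142 to 148 CPM. The receptor Pdcd1 (PD-1) was at 0.0967, 0.795, 0.920 and 0.606 CPM.

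**Figure D4:**
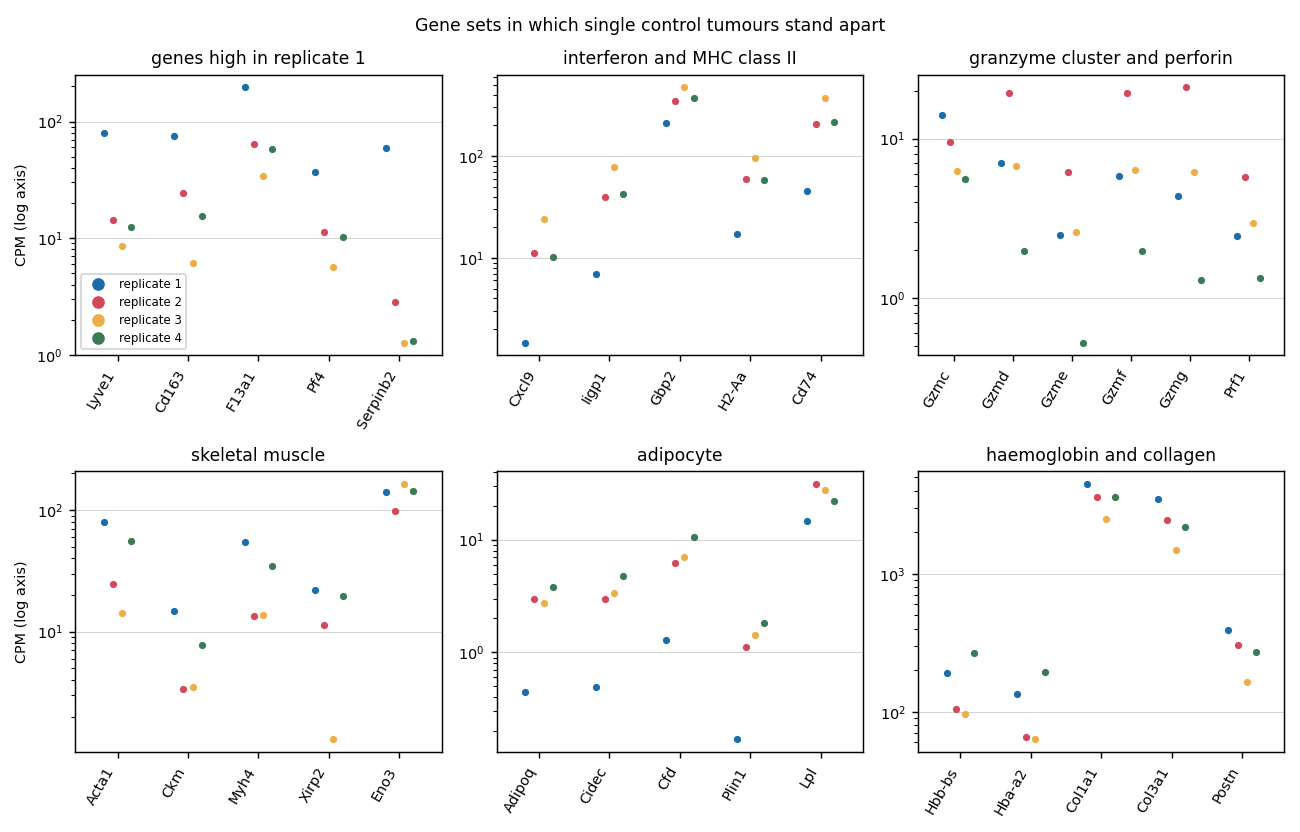
CPM (log axis) of 6 gene sets in each control tumour, 1 point per tumour: genes high in replicate 1, interferon and MHC class II genes, granzymes with perforin, skeletal muscle, adipocyte, and haemoglobin with collagen. Replicate 1 is at the top of the first panel and at the bottom of the interferon and adipocyte panels, and replicate 4 is lowest for the cytotoxic genes shown and highest for haemoglobin.

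Genes of skeletal muscle, fat and blood differed between the tumours, and the source of their transcripts was not tested. Of 17 skeletal muscle genes at a mean of 1 CPM or more, 15 were over 2-fold, against 6.45% of all genes. When any tumour was left out, 13 to 15 remained so. Skeletal alpha-actin, Acta1, was at 80.1, 24.8, 14.3 and 55.2 CPM and the fast myosin Myh4 at 54.5, 13.4, 13.6 and 34.5 CPM. Myh1, another fast myosin, was at 15.4, 7.16, 1.33 and 11.8 CPM, so replicate 3 held the least of most muscle transcripts. Eno3, listed as the muscle enolase, did not follow, at 142, 98.2, 163 and 142 CPM. Adipocyte genes were lowest in replicate 1 in 10 of 10 cases, against 26.3% of all genes. The hormone gene Adipoq was at 0.447, 2.94, 2.72 and 3.80 CPM and the lipid droplet gene Cidec at 0.496, 2.97, 3.37 and 4.75 CPM. Without replicate 1 none of the 10 was over 2-fold, where 7 were with it. For all genes these shares were 2.7% and 6.45%. Haemoglobin was highest in replicate 4, with Hbb-bs at 192, 104, 96.1 and 268 CPM and Hba-a2 at 134, 65.5, 62.9 and 193 CPM. The summed muscle list was at 423, 190, 222 and 341 CPM, of which Eno3 alone made 142, 98.2, 163 and 142 CPM. The sum therefore does not order the tumours as most muscle genes do. The list score was -1.16 in replicate 3 and -0.41 in replicate 2. The part of muscle RNA in the fibroblast, vessel and interferon values above was not tested.

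Energy metabolism was abundant and even. All 23 glycolysis genes were expressed in every tumour with a median of 164 TPM, where 72% of protein-coding genes were expressed. No member was over 2-fold, against 6.45% of all genes. The pyruvate kinase gene Pkm was at 2406, 2439, 2710 and 2483 CPM, Ldha, which makes lactate from pyruvate, at 1227, 1248, 1415 and 1299 CPM, and Aldoa, aldolase, at 1031, 1078, 1241 and 1136 CPM. Each of these was highest in replicate 3, as were 14 of the 23, against 30.3% of all genes. The other lactate dehydrogenase subunit, Ldhb, was at 1.33, 2.07, 2.13 and 1.56 CPM, so that Ldha stood at 1484 TPM and Ldhb at 2.82 TPM. The glucose transporter Slc2a1 was at 197 TPM and the lactate exporters Slc16a1 and Slc16a3 at 208 and 112 TPM.

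The 23 genes of the TCA cycle and its entry had a median of 91.0 TPM, and the 17 nuclear genes of oxidative phosphorylation one of 151 TPM with a median coefficient of variation of 3.42%. The citrate synthase gene Cs was at 343, 352, 366 and 344 CPM and the ATP synthase gene Atp5b at 1220, 1282, 1273 and 1137 CPM. Amino acid genes included the serine pathway gene Psat1 at 255 TPM, the amino acid transporters Slc7a5 and Slc38a2 at 159 and 177 TPM, and the asparagine synthetase gene Asns, which was at 153 CPM in replicate 1 and at 185 to 186 CPM in the other 3. Hmox1, the haem-degrading enzyme haem oxygenase-1, was at 499 CPM in replicate 1 and at 280 to 326 CPM in the others. In cholesterol synthesis, 16 of 18 genes were lowest in replicate 1 and 15 highest in replicate 3, against 26.3% and 30.3% of all genes. No member was over 2-fold, where 6.45% of all genes were. Sqle, squalene epoxidase, was at 189.4, 209, 275 and 221 CPM and Idi1, which isomerises isopentenyl diphosphate, at 68.0, 74.9, 113 and 85.9 CPM. The hypoxia marker Car9, carbonic anhydrase IX, was at 37.2, 48.9, 67.8 and 54.3 CPM. Of 18 hypoxia genes, 10 were highest in replicate 3, against 30.3% of all genes.

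Proliferation genes differed little between tumours. All 20 mitosis genes were expressed in every tumour, as were 72% of protein-coding genes. Their median was 63.6 TPM and their median coefficient of variation 4.33%. Mki67, the Ki-67 antigen gene, was at 354, 352, 323 and 351 CPM and Top2a, topoisomerase II alpha, at 326, 304, 310 and 330 CPM. Cyclin B1, Ccnb1, was at 58.1, 57.3, 58.3 and 56.4 CPM and cyclin B2, Ccnb2, at 54.0, 51.7, 51.5 and 52.2 CPM. The 20 replication genes were similar (4.63%), with the clamp gene Pcna at 113, 113, 134 and 117 CPM and the helicase gene Mcm5 at 142.6 to 157.8 CPM. No gene of either list was over 2-fold, where 6.45% of all genes were. Promoter windows were found for 17 mitosis genes, and CCAAT on either strand, the letters bound by NF-Y, was in 15 of them (88.2%) and in 41.1% of all genes in the promoter table. The cyclin B windows are shown as steady members of the list (Ccnb1 varied by 1.51%), with CCAAT in capitals.
Ccnb1 promoter, chr13:100786437-100786736, minus strand: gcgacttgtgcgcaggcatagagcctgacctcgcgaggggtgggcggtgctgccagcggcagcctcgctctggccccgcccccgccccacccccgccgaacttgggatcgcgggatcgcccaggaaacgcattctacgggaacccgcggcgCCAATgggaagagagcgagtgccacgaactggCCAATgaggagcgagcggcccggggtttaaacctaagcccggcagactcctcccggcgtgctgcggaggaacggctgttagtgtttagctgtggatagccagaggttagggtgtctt
Ccnb2 promoter, chr9:70421505-70421804, minus strand: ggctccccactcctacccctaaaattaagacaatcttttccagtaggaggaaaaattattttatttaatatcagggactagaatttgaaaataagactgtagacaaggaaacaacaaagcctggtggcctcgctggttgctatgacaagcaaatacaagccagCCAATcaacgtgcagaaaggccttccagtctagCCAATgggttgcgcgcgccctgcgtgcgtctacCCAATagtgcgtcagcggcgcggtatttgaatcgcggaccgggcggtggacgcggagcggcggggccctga
The Ccnb1 window holds 2 matches and the Ccnb2 window 3.

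Stress and growth programmes were expressed without large spread. In the unfolded protein response, the chaperone Hspa5 (BiP) was at 1140, 1081, 971 and 968 CPM. In that list 9 of 16 genes were lowest in replicate 3, against 27% of all genes. Among heat shock genes Hsp90ab1 was at 2953 TPM and varied by 1.94%. Immediate early genes respond within minutes to handling as well as to growth factors. They were lowest in replicate 3 in 12 of 18 cases, against 27% of all genes. Egr1 was at 155, 193, 106 and 204 CPM and Fos at 25.3, 21.9, 19.2 and 20.4 CPM. Of p53 targets, Cdkn1a (p21) was at 127, 120, 128 and 112 CPM and Mdm2 at 96.3, 105, 109 and 99.5 CPM.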

How the data were processed

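Per the labels' protocols, libraries were made with the KAPA Stranded mRNA-Seq kit from enriched mRNA. The submitters' processing notes name bcl2fastq 2.19.1.403, STAR and the build GRCm39. The sources used here do not name the quantifier, the annotation or any use of strand, so overlapping antisense genes cannot be told apart. The authors deposited estimated counts per gene and a table of CPM made from them after adding 0.0001 count. Every gene had a total of at least 10 over the 8 libraries, and 0 sample columns were left unmapped.

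The counts were scaled by TMM (edgeR 4.0.16 in R 4.3.3), and rounded to whole numbers for the biological coefficient of variation, whose estimate was checked on simulated counts. TPM used the longest basic GENCODE M21 transcript, known for 25863 genes, at least 96.6% of the counts. Percentiles are among 16665 protein-coding genes. DESeq2 1.42.0 was an alternative. No groups were compared and no p-value was computed. With 4 tumours, SDs are imprecise, and they measure only the spread between these tumours.

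The members and the 58 lists (965 entries, 18 symbols not analysed here) were chosen with earlier results of these data known. The transcript length, list scores, counts per tumour, promoter motifs, the windows shown, the list counts without each tumour and the count of named genes whose mean moved by over 1.5 times were chosen after values were seen. Genes were named by rule: the 25 of highest TPM, all lineage list members, in other lists the 5 of highest TPM, the 2 of highest ratio between tumours and the first 2 as listed, the 12 of highest and 12 of lowest coefficient of variation, and the 5 furthest above and below the others in each tumour. The seminal vesicle and prostate genes, Xist, the Y-linked genes, the copies with Rps2, Rps18, Rps27 and Eno1, and C1qa, Ccnb1, Ccnb2, Ciita, Cxcl10, Cxcl16, Gzma, Gzmb, Ifi27l2a, Ifng, Kdr, Loxl2, Lum, Myh4, Nos2, Pdcd1, Prf1, Slc16a1, Slc16a3, Slc7a5 and Vwf were chosen after their values were seen. Some results are not reported here. Counting intervals were not given, since estimated counts are not whole.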

Additional observations from a re-analysis of the deposited data

Results flagged for a closer look

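Each gene named above at a mean of at least 1 CPM (204 genes) and each of 58 list scores was searched for a single tumour whose gap to the nearest of the other 3 was above Dixon's 95% critical value for 4 samples, a share of 0.829 of the whole range (on the log2 scale for genes). There were 17 such genes and 2 such lists, and chance flags about 5% of groups of 4. That rate is no reference for these counts, since Adipoq, Krt14, Ppbp, Svs4 and Trim63 were named for a tumour that lay far from the others and Cxcl16, Loxl2, Semg1, Tgm4 and Xist after their values were seen.

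In replicate 1, 7 genes stood apart. It was low in the E-cadherin gene Cdh1 at 4.05 CPM, in Asns at 153 CPM, in Cxcl16 at 45.8 CPM, in Ighm at 1.22 CPM and in Adipoq at 0.447 CPM. It was high in Loxl2 at 195 CPM and in Ppbp at 8.81 CPM. Replicate 2 was high in Zeb2 at 105 CPM, and in the seminal vesicle and prostate genes Semg1 at 122 CPM, Svs4 at 12.2 CPM and Tgm4 at 5.57 CPM. Replicate 3 was low in Epcam at 3.13 CPM, in Mki67 at 322.5 CPM and in Trim63 at 0.0135 CPM, and high in Slc38a2 at 450.1 CPM. Replicate 4 was high in Krt14 at 13.8 CPM and in Xist at 82.99 CPM.

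The score of matrix proteases and inhibitors was 0.13 in replicate 2, above the other 3 tumours, and that of heat shock genes and chaperones -0.075 in replicate 4, below the other 3. Both are small differences in log2 units.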

How the results depend on the processing

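The number of genes at 1 CPM or more in every tumour (13903) stayed within 1.5 times under each alternative run, from 11214 at a threshold of 5 CPM to 15132 at 0.5 CPM, and from 13957 to 14056 with a tumour left out. The number of lists with a median in the upper part of the protein-coding genes (40) ran from 38 to 47. The number of genes over 2-fold (932) depended on the setting: it was 392 at a mean of at least 5 CPM, 9586 with no filter on low values, 537 with 1 added to each CPM, 2208 at a ratio of 1.5, 165 at a ratio of 4, and 371 to 832 with a tumour left out (371 without replicate 1, 581 without replicate 3). The common biological coefficient of variation (15.3%) was 12.6% to 17.1% with a tumour left out, and DESeq2's median gene-wise estimate, another quantity, was 6.67%. Of 524 named genes, 0 had a mean CPM that moved by over 1.5 times under DESeq2 size factors or library totals, and 19, 8, 3 and 7 did without replicates 1, 2, 3 and 4. Without replicate 1 the mean of Serpinb2 was 1.82 CPM in place of 16.2 CPM. Of the 58 list medians, 47 moved by over 1 SD between tumours without length scaling (by up to 15.4 percentile points), 50 when ranked among all genes with a length (up to 16.9) and 29 with merged exon lengths (up to 7.63). Of 232 list counts over 2-fold with a tumour left out, 50 changed by more than 1.5 times, an alternative added after seeing the data, and the cause was not tested. No paired analysis was possible because a single group was described and its replicate numbers follow accession order. Levels under 0.1 CPM rest on a few counts.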

Other observations

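Transcripts of the seminal vesicle and prostate were counted in all 4 control tumours. Semg1, a seminal vesicle secretory protein, was at 54.4, 122, 50.6 and 47.9 CPM in replicates 1 to 4, and at 83.9 TPM it was at the 90.1th percentile of protein-coding genes. Svs5 was at 16.1, 37.0, 17.6 and 14.7 CPM, Svs4 at 4.17, 12.2, 4.59 and 3.77 CPM and Sbp, the spermine-binding protein gene of the prostate, at 9.21, 22.2, 9.89 and 7.71 CPM. The transglutaminase gene Tgm4 was at 2.39, 5.57, 2.201 and 2.186 CPM, Pate4 at 4.77 to 9.63 CPM and Pbsn, probasin, at 0.906 to 2.28 CPM. Each of these genes was highest in replicate 2. The Y-linked genes Ddx3y (0 to 0.0604 CPM), Kdm5d (0 to 0.0651 CPM) and Eif2s3y (0 to 0.0247 CPM) were near 0 in every tumour, and Xist, the RNA that coats the inactive X chromosome, was at 63.7, 65.0, 62.1 and 82.99 CPM. The source of these transcripts was not tested.

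Some genes, named for their distance, stood far from the other 3 tumours in a single tumour. In replicate 1, Angptl1 was above and Mup22 and the adipocyte gene Plin1 were below the nearest other tumour by 4.001, 3.46 and 2.73 log2 units. In replicate 3, Fgfbp1 and Ppl were above it by 1.33 and 1.38, and the muscle genes Trim63, Myh2 and Xirp2 below it by 6.28, 3.53 and 3.13. In replicate 4 the milk protein lactoferrin, Ltf, was above it by 1.65 and the prolactin receptor, Prlr, by 1.15. The largest gaps rest on values near 0. Trim63 was at 0.0135 CPM in replicate 3, the worth of 1 count, and the mean of Angptl1 without replicate 1 was 0.197 CPM. The genes of lowest coefficient of variation at 5 CPM or more were Rbm15b, Hax1 and Trim28 (0.253%, 0.294% and 0.351%), values that the choice of the lowest among many genes favours.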
